A study of Homo sapiens with 4 samples.

Results

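Voltage-gated and potassium channel genes encode the proteins that let potassium, calcium and sodium ions cross the cell membrane and that shape the electrical behaviour of excitable cells. Their members were taken as all genes whose symbol begins with KCN (without KCNQ1OT1 and the KCNIP genes) or CACN, or consists of SCN, a number and A or B. Of 18244 genes with a probe set of a single symbol on the array, 122 met this rule: 85 potassium, 25 calcium and 12 sodium channel genes. They were covered by 284 probe sets, and each gene was represented by its brightest probe set over all arrays.

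The cells were Kelly cells, an established human neuroblastoma line, in a subline that had become resistant to TAE684, which blocks the ALK receptor kinase; both groups were grown in 1 µM of it. One group received virus with a short hairpin RNA against BORIS (shBORIS), the protein of the gene CTCFL, a germ-line paralog of the chromatin-organising factor CTCF. The control group received a hairpin against luciferase (shLUC). Both were exposed to virus for 24 h with 8 µg/ml polybrene, selected with puromycin for 48 h, and collected as biological duplicates, giving 4 Affymetrix PrimeView arrays from 100 ng of total RNA each. P-values rest on the spread between these duplicates, pooled over genes of like intensity. For intensities as deposited only that pooled spread is used, and not each gene's own. The labels name a single hairpin against BORIS, so what that hairpin does to other transcripts and what the loss of BORIS does cannot be told apart.

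Potassium channels carry current out of the cell and set the resting potential and the end of each action potential. Voltage-gated calcium channels turn depolarisation into calcium entry, which drives secretion and gene expression, and voltage-gated sodium channels start the action potential. Neuroblastoma comes from precursors of sympathetic neurons and adrenal chromaffin cells, which are excitable, and neuroblastoma lines are known to carry several of these currents.

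The deposited intensities differed between the groups for most genes. Across the 10946 genes above a filter at the 40th percentile of gene means (intensity 62.2), the median log2 difference, shBORIS minus shLUC, was 0.48 on the scale of log2(intensity + 16), while the ERCC spike-in probe sets had medians of 25.5 and 25.8 in shBORIS against 24.8 and 24.4 in shLUC. Each gene is therefore given as deposited and also on a centred scale, on which the median of the tested genes of each array is subtracted, so that 0 is the shift of the median gene. A centred difference is a difference on that scale. Rises and falls below are limma calls at a Benjamini-Hochberg adjusted p of 0.05 over all genes tested, and the scale is named each time. The targeted gene, CTCFL, measured 701 and 737 in shBORIS against 3563 and 3376 in shLUC (719 ± 25.7 against 3470 ± 133, SD, n = 2 each), with no overlap between the groups. It fell by 2.25 as deposited (SE 0.11) and fell by 2.72 on the centred scale (SE 0.05, limma adjusted p = 7.89e-10).

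The labelled cell type was checked with marker lists. All 10 adrenergic neuroblastoma markers and all 7 neuronal markers measured were above the filter, with summed intensities of 24085 and 24996 against 18152 and 17398 for the former and 8115 and 8565 against 6807 and 6179 for the latter. Of the markers of other cells, 1 of 4 Schwann and glial, 3 of 6 fibroblast and mesenchymal, 3 of 6 endothelial and blood and 2 of 5 muscle and heart genes were above it. No marker was listed at 0. On the centred scale 3 adrenergic markers rose and 6 fell (median −0.16), and 2 neuronal markers rose and 3 fell (median −0.07). Of all genes tested 30.3% rose and 28.8% fell. CHGA was at 6272 and 6239 against 2292 and 1974, and PHOX2A at 1072 and 1177 against 1281 and 1249. The fibroblast and mesenchymal list summed to 1574 and 1790 on the shBORIS arrays and to 1944 and 1845 on the shLUC arrays. Its genes above the filter went different ways. VIM was at 180 and 212 against 488 and 457 and COL1A1 at 451 and 515 against 729 and 779. FN1 was the higher in shBORIS, at 815 and 950 against 631 and 509. The sums of the other 3 lists were 200.03 and 221 against 173 and 156, 318 and 320 against 324 and 274, and 278 and 297 against 218 and 212, in the order named. The part of these genes in the channel results was not tested. In bulk RNA, fewer cells of a type and less RNA per cell cannot be told apart.

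Most channel genes gave little signal. The filter was passed by 41 of the 122 genes (33.6%), against 10946 of all 18244: 26 of 85 potassium genes (30.6%), 10 of 25 calcium genes and 5 of 12 sodium genes (41.7%). By role, these were 9 of 35 voltage-gated potassium pore subunits, 3 of 9 potassium accessory subunits, 4 of 14 inward rectifiers, 4 of 15 two-pore potassium channels, 6 of 11 calcium- or sodium-activated potassium channel subunits, 3 of 10 calcium pore subunits, 7 of 15 calcium accessory subunits, 3 of 9 sodium pore subunits and 2 of 3 sodium accessory subunits. KCNJ5-AS1, a non-coding RNA that the rule also took, was below the filter. The 41 genes had a median intensity of 119, against 258 for all genes tested; 27 of them reached 100 and 2, KCNH2 and KCNMB4, reached 250. All 4 arrays were above the filter for 33 of the 41. Intensities of different probe sets are not measures of relative abundance, so these figures describe signal above background and no order of expression.

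The array also carries 23 background probe sets, for which no transcript is meant to bind. KCNH2 alone exceeded their 95th percentile on all 4 arrays, whereas 95 of the 122 genes exceeded their geometric mean on all 4, a criterion chosen after the data were seen. At the filter, CACNA1C was just above it at 62.6 and KCNK7 just below at 61.7. The 81 genes below had means of 12.3 to 61.7 with a median of 35.1. Among them were genes often studied in neurons, each with its mean over the arrays: KCNQ3, a subunit of the M current, at 37.3; KCNN3, a small-conductance calcium-activated channel, at 43.8; CACNA1H, a T-type calcium channel, at 29.1; CACNA2D1, an accessory calcium channel subunit that binds gabapentin, at 32.8; and the sodium channels SCN9A at 21.2 and SCN2A at 24.9. No transcript level is read from these values.

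**Figure D1:**
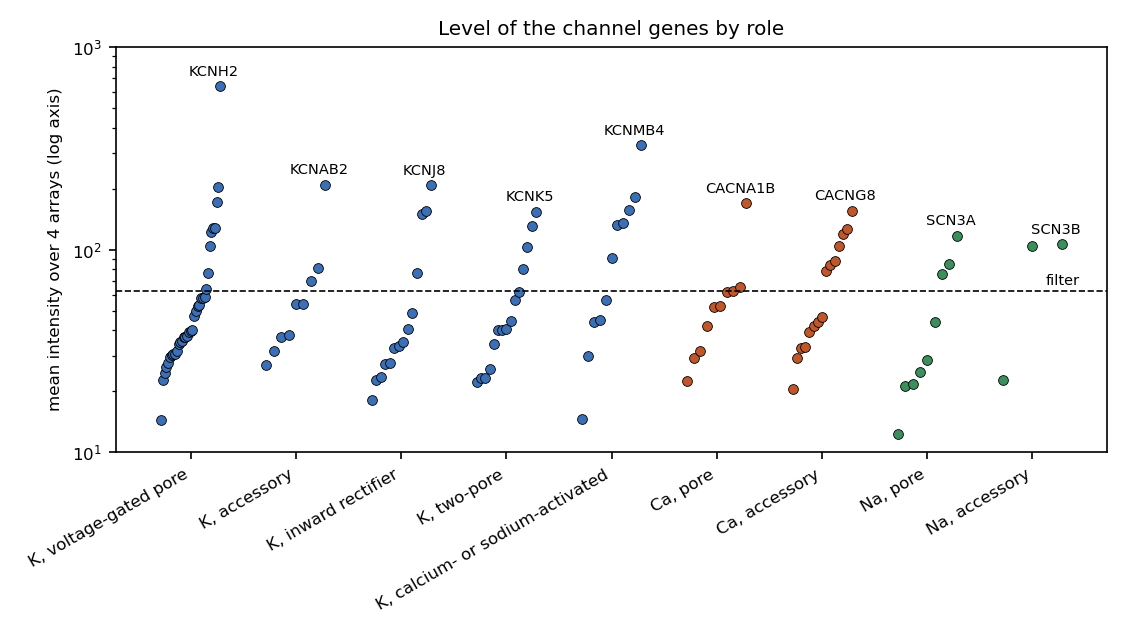
Mean intensity over the 4 arrays (log axis) of each channel gene, 1 point per gene, by role and ion; the dashed line is the filter at 62.2, and KCNJ5-AS1 is not drawn. Most points lie below the line in every potassium role except the calcium- or sodium-activated group, and the named gene is the highest of its role.

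Promoter sequences were searched for letters that transcription factors of this setting bind, since BORIS and CTCF share nearly the same zinc finger region and REST, a repressor of neuronal genes, binds near several channel genes. RefSeq promoter windows (GRCh38.p14), of which the 250 bases before each transcription start were used, matched 90 of the 122 genes and 29 of the 41 above the filter. Both strands were read, and each motif was counted on its own, so matches of different motifs may overlap. The core of the CTCF site, read here as CCA, 2 bases of any kind, AG, 2 more and GGC, was present in a window of 4 of the 90 genes (4.44%), namely KCNA3, SCN1A, KCNH2 and KCNJ5-AS1, against 686 of 27305 genes (2.51%) and 708 of 35116 windows (2.02%). One part of the REST element, TTCAGCACC, was present for 3 of 90 (3.33%), KCNK3, CACNG3 and KCNH6, against 97 of 27305 genes (0.355%). The GC box GGGCGG was found for 59 of 90 (65.6% against 46.2% of genes) and TATAAA for 11 of 90 (12.2% against 13.0%). These shares are over all genes with a window, also those not on the array. Among genes above the filter, the GC box was found for 72.4% of channel genes against 76.1% of all. There the CTCF core was at 2 of 29 genes (6.90%) against 305 of 9054 (3.37%). The REST letters were at 2 of 29 (6.90%) against 25 of 9054 (0.276%), and TATAAA at 5 of 29 (17.2%) against 697 of 9054 (7.70%). Counted per window, with 53 windows for these channel genes, the shares were 3.77% against 2.39%, 3.77% against 0.195% and 9.43% against 5.68%. The windows of the genes above the filter that held either of the first pair of motifs are shown because these letters are the ones BORIS, CTCF or REST could read; a match describes letters only and is no evidence of binding. Each is written 5′ to 3′ on the strand of the gene and ends at the base before the start, with the match in capitals. That of SCN1A, at chr2:166128021-166128270 on the minus strand, is 33.6% GC and holds the CTCF core 86 to 75 bases before the start, on the gene's strand; it is 1 of 2 windows of the gene. That of KCNH2, at chr7:150975042-150975291 on the minus strand, is 76.8% GC and holds the core 46 to 35 bases before the start, on the other strand; it is 1 of 5 windows. The REST letters lie 233 to 225 bases before the start of KCNH6, on the gene's strand of chr17:63523108-63523357 (plus strand, 77.6% GC). In KCNK3 they lie 31 to 23 bases before the start, on the strand opposite the gene, in chr2:26692472-26692721 (plus strand, 76.4% GC).
SCN1A: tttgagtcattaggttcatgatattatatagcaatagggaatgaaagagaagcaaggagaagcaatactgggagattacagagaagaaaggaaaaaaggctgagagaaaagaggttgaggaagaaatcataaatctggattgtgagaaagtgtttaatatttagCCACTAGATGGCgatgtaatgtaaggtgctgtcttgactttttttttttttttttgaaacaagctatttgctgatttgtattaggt
KCNH2: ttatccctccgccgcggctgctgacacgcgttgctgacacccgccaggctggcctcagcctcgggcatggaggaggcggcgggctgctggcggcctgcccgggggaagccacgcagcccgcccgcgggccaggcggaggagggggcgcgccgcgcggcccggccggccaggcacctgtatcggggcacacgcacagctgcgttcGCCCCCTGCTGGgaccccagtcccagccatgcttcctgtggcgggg
KCNH6: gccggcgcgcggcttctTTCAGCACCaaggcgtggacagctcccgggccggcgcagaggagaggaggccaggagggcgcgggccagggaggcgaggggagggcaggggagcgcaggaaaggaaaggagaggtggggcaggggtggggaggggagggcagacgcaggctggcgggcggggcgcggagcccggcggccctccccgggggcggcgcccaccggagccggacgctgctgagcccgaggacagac
KCNK3: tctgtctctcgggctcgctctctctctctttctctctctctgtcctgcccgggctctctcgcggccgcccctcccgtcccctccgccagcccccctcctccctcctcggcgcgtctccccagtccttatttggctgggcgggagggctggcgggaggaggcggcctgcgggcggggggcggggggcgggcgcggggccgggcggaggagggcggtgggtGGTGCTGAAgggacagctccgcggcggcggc

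Which of the 41 genes differed depended on the scale. As deposited, 29 were higher in shBORIS (77.2% of all genes tested were), 1 was lower (4.64%) and 11 did not pass the test. On the centred scale, 6 rose (30.3% of all genes), 20 fell (28.8%) and 15 did not pass; the differences ran from −0.92 to 0.41 in log2, and 38 of 41 were under 0.5 in size. The arrays of the groups did not overlap, with shBORIS higher or lower, for 33 and 2 genes as deposited (83.8% and 6.65% of all genes) and for 7 and 24 on the centred scale (40.4% and 39.0%). The same 6 genes were higher on both scales: KCNH1, KCNT2, KCNMB3, CACNG4, SCN1A and SCN3A. SCN3B was lower on both. For SCN1A, KCNQ1, KCNE5 and CACNA1C both shLUC arrays were under the filter, so these 4 passed it only through the shBORIS arrays, where they are higher; the filter bears on their being higher as deposited, and their values are a description. Without them the counts are 25 higher and 1 lower as deposited, and 5 rising and 19 falling on the centred scale. Another 8 were called higher as deposited and lower on the centred scale, 15 higher as deposited with no call on the centred scale, and 11 lower on the centred scale with no call as deposited. The median difference of the 41 genes was 0.31 as deposited and −0.17 on the centred scale, beside 0.48 and 0.00 for all genes tested.

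Background probe sets moved with the deposited scale. The 5 with 20 to 24 G or C bases in their 25-base probes had intensities of 53.2 to 452 and were higher in shBORIS by 0.30 to 0.54 in log2, while the 13 with up to 15 differed by −0.02 to 0.05. Their part in the results as deposited was not tested. The median difference of all genes as deposited also varied with level, with the genes in 5 bins of equal number, being 0.34 in the dimmest bin (intensities 62.2 to 114), 0.44 in the next (114 to 198), 0.51 from 198 to 339, 0.59 from 339 to 662 and 0.55 above. Of the 41 channel genes, 36 lay in the 2 dimmest bins. In these 9.13% and 23.8% of all genes rose on the centred scale and 36.0% and 31.9% fell, beside 2 and 4 channel genes that rose, and 7 and 9 that fell, of 19 and 17.

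**Figure D2:**
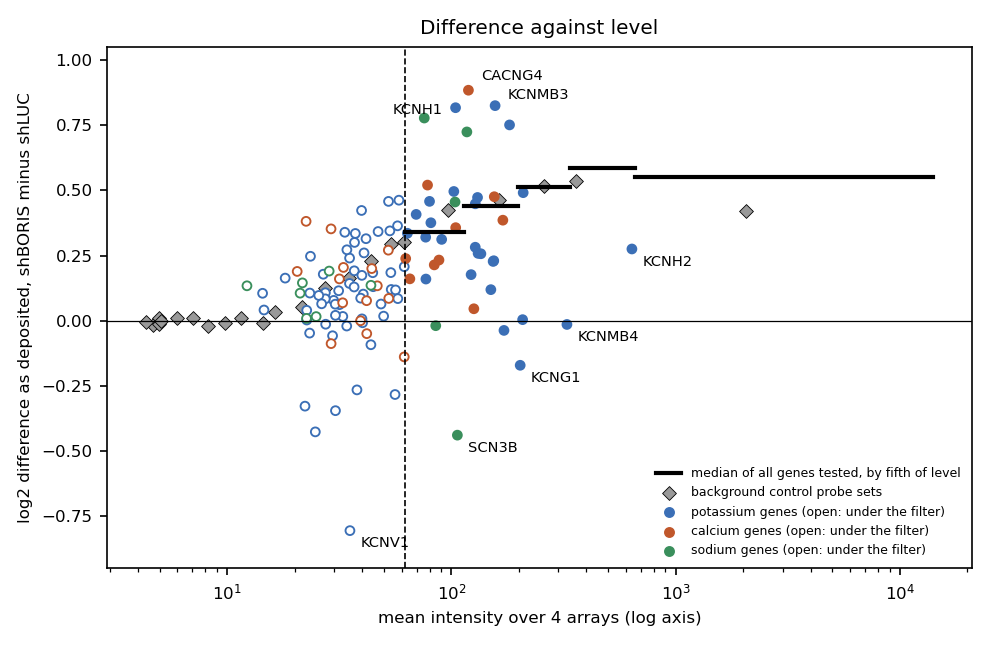
Log2 difference as deposited (shBORIS minus shLUC) against mean intensity over the 4 arrays (log axis), for channel genes by ion, background probe sets (diamonds) and the medians of all genes tested in 5 bins of level (black bars); the dashed line is the filter. Background probe sets right of the line lie between 0.42 and 0.54, and CACNG4 (0.88) and SCN3B (−0.44) mark the top and bottom of the channel genes tested.

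Voltage-gated potassium pore subunits form the delayed rectifier, A-type, M-type and ether-à-go-go currents that repolarise neurons. Of the 9 tested, 6 were higher as deposited (77.2% of all genes tested were) and none lower (4.64%). On the centred scale 1 rose (30.3% of all genes), 5 fell (28.8%) and 3 did not pass (median difference −0.20). KCNH1, which encodes the EAG1 channel and is often present in tumour cells, measured 132 and 144 on the shBORIS arrays against 71.5 and 70.8 on the shLUC arrays. Both shBORIS arrays were above both shLUC arrays, and it was higher by 0.82 as deposited (SE 0.11, limma adjusted p = 7.26e-13) and rose by 0.34 on the centred scale (SE 0.08, adjusted p = 0.00398). With the mean of all its probe sets in place of the brightest, the centred difference of KCNH1 was 0.01 (limma adjusted p = 0.903). KCNG1, a subunit that does not form channels alone but modifies KCNB channels, measured 178.5 and 201 against 212 and 219.5. The shBORIS arrays were the lower pair, with a difference of −0.17 as deposited that did not pass (adjusted p = 0.129) and a fall of 0.65 on the centred scale (SE 0.07, limma adjusted p = 4.86e-05), in the same direction in its other probe set above the filter. KCNS3, a modifier of the same kind, measured 168 and 170 against 187 and 162, so that its groups overlapped as deposited. Its difference was −0.04 as deposited (adjusted p = 0.751), and it fell by 0.51 on the centred scale (SE 0.07, limma adjusted p = 1.49e-04).

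KCNH2 encodes hERG, which carries the rapid delayed rectifier current of the heart and is present in many tumour lines. It measured 655 and 747 against 609 and 543, both shBORIS arrays above both shLUC arrays, yet by less than the median gene. It was higher by 0.28 as deposited (SE 0.11, limma adjusted p = 0.0203) and lower by 0.20 on the centred scale (SE 0.06, adjusted p = 0.0129), with the same centred sign in all 3 of its probe sets above the filter. KCNC4, another voltage-gated pore subunit, showed the same pair of calls, at 139 and 144 against 123 and 105: 0.28 as deposited (SE 0.11, limma adjusted p = 0.012) and −0.20 on the centred scale (SE 0.07, adjusted p = 0.0436). The other probe sets of KCNC4 above the filter were at −0.05 and 0.01 on the centred scale, and the mean of its probe sets, at −0.12, did not pass (limma adjusted p = 0.126). KCNH3, an ether-à-go-go-like channel of the brain, measured 123 and 139 against 118 and 110, was not called as deposited (0.18, adjusted p = 0.119) and fell by 0.30 on the centred scale (SE 0.07, limma adjusted p = 0.00516). KCNH6, a relative of KCNH2, measured 97.3 and 77.1 against 60.3 and 72.6. KCNQ1, the slow delayed rectifier, measured 69.9 and 76.0 against 55.5 and 53.4, and KCNC1, a fast delayed rectifier, 144 and 156 against 116 and 95.9. All were higher as deposited (0.32, 0.34 and 0.45) with centred differences of −0.16, −0.14 and −0.03 that did not pass (limma adjusted p = 0.35, 0.184 and 0.766). KCNQ1 passed the filter only through its shBORIS arrays, so its value as deposited is a description. Several of these calls changed when 1 array was left out, in fits that have fewer arrays to call with. The centred difference of KCNH2 was −0.16 without shBORIS replicate 1 (limma adjusted p = 0.106) and −0.18 without shLUC replicate 1 (0.0549). That of KCNC4 was −0.22 without shBORIS replicate 1 (0.0776), −0.17 without shBORIS replicate 2 (0.156) and −0.15 without shLUC replicate 1 (0.199). As deposited, KCNH6 was at 0.18 without shBORIS replicate 1 and 0.21 without shLUC replicate 1, and KCNQ1 at 0.29 without shBORIS replicate 2, none of which passed. On the centred scale KCNH6 was at −0.34 without shBORIS replicate 1, where it passed (limma adjusted p = 0.0280), and at 0.03 without shBORIS replicate 2, and the mean of the probe sets of KCNC1 was at −0.22 (limma adjusted p = 0.0179).

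Accessory subunits assemble with the pores and change their gating or their delivery to the membrane. The 3 potassium accessory genes tested were higher as deposited in all 3 cases (77.2% of all genes tested were). None was called on the centred scale (median −0.07), where 30.3% of all genes rose and 28.8% fell. KCNAB2, a beta subunit of KCNA channels, measured 241.5 and 252 against 185 and 157.5, higher by 0.49 as deposited (SE 0.11, limma adjusted p = 9.97e-06) and 0.01 on the centred scale (SE 0.07, adjusted p = 0.876). KCNAB1, a beta subunit of the same kind, measured 92.8 and 94.3 against 72.2 and 64.9. KCNE5, a small subunit that modifies KCNQ1, measured 80.4 and 83.0 against 58.6 and 56.7. They were higher by 0.38 and 0.41 as deposited, with centred differences of −0.10 and −0.07. KCNE5 passed the filter only through its shBORIS arrays, so its value as deposited is a description. Groups of arrays did not overlap as deposited for any of the 3.

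Inward rectifiers hold the resting potential and, in the case of KCNJ8 and KCNJ11, form the pores of channels closed by ATP. All 4 tested fell on the centred scale (28.8% of all genes tested did), by a median of 0.34, and 1 of the 4 was higher as deposited (77.2%). KCNJ8 measured 216 and 200.2 against 214 and 201, so that its groups overlapped and were level as deposited (0.00, SE 0.11, limma adjusted p = 0.974), and it fell by 0.47 on the centred scale (SE 0.08, adjusted p = 4.62e-04). KCNJ12, a strong inward rectifier whose near-identical copy KCNJ18 the probes may also detect, measured 148 and 166 against 156 and 131. Its groups overlapped as deposited (0.12, limma adjusted p = 0.292), and it fell by 0.36 on the centred scale (SE 0.07, adjusted p = 0.00215), with the same sign in both probe sets above the filter. KCNJ11 measured 157 and 179 against 155 and 127, with both shBORIS arrays higher as deposited by 0.23 (limma adjusted p = 0.0391) and a centred fall of 0.25 (SE 0.08, adjusted p = 0.0202). KCNJ4, an inward rectifier of the forebrain, measured 79.2 and 85.1 against 70.8 and 72.9 and fell by 0.32 on the centred scale (SE 0.09, limma adjusted p = 0.00993). Without shBORIS replicate 1 the centred difference of KCNJ11 was −0.20 (adjusted p = 0.0945) and without shLUC replicate 1 it was −0.17 (0.133); without shLUC replicate 2 that of KCNJ4 was −0.25 (limma adjusted p = 0.0838).

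Two-pore potassium channels carry the leak current and respond to pH, stretch or lipids. The 4 tested were all higher as deposited (77.2% of all genes tested were), and 1 fell on the centred scale (28.8%), with a median of −0.01. KCNK5, an alkaline-activated leak channel, measured 156 and 177 against 156 and 125, higher by 0.23 as deposited (limma adjusted p = 0.0415) and lower by 0.25 on the centred scale (SE 0.08, adjusted p = 0.0219). KCNK3, an acid-sensitive leak channel known from chromaffin and neuronal cells, measured 141 and 169 against 109 and 104. Its shBORIS arrays were the higher pair by 0.47 as deposited (SE 0.11, limma adjusted p = 2.25e-05), close to the shift of the median gene (centred difference 0.00 in size, adjusted p = 0.965). KCNK4 at 127 and 118 against 84.8 and 80.0, a mechanosensitive leak channel, and KCNK16 at 90.3 and 99.8 against 68.6 and 61.1, a leak channel known from the pancreas, had centred differences of 0.02 and −0.02. With the mean of all its probe sets KCNK4 was at −0.20 on the centred scale (limma adjusted p = 0.0189), the opposite sign. The centred difference of KCNK5 was −0.21 without shBORIS replicate 1 (limma adjusted p = 0.0837) and −0.16 without shLUC replicate 1 (0.158).

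Calcium- and sodium-activated potassium channels couple the ion that entered to repolarisation. Of the 6 subunits tested, 5 were higher as deposited (77.2% of all genes tested were). On the centred scale 2 rose (30.3% of all genes), 3 fell (28.8%) and 1 did not pass (median −0.19). The accessory subunits of the large-conductance BK channel went different ways. KCNMB3 measured 189.5 and 220.4 against 114 and 103, the shBORIS arrays being the higher pair, and rose by 0.83 as deposited (SE 0.11, limma adjusted p = 9.72e-14) and by 0.35 on the centred scale (SE 0.07, adjusted p = 0.00218). Its other probe set above the filter gave 122 and 133 against 60.6 and 56.4, a centred difference of 0.47. KCNMB4, the neuronal BK subunit, measured 315 and 337 against 342 and 317. These groups overlapped and differed by −0.01 as deposited (limma adjusted p = 0.908), and the gene fell by 0.49 on the centred scale (SE 0.06, adjusted p = 6.17e-05). KCNMB2, a subunit that inactivates BK channels, measured 104 and 100.0 against 87.1 and 71.4, higher by 0.31 as deposited (0.19 without shLUC replicate 2, limma adjusted p = 0.185), with a centred difference of −0.17 that did not pass (limma adjusted p = 0.134).

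The BK pore itself, KCNMA1, measured 142 and 156 against 132 and 113, higher by 0.26 as deposited (limma adjusted p = 0.0217) and lower by 0.22 on the centred scale (SE 0.07, adjusted p = 0.0247), with the same sign in both probe sets above the filter. KCNN1, a small-conductance channel, measured 136 and 153 against 125 and 112 and had the same values within rounding, 0.26 as deposited (limma adjusted p = 0.0212) and −0.22 on the centred scale (SE 0.07, adjusted p = 0.0238); the mean of its probe sets was at 0.12 as deposited (limma adjusted p = 0.176). KCNT2, a sodium-activated channel, measured 205 and 259 against 149 and 114, with both shBORIS arrays higher, by 0.75 as deposited (SE 0.11, limma adjusted p = 1.15e-11) and by 0.27 on the centred scale (SE 0.10, adjusted p = 0.0375). Leaving out shBORIS replicate 1, shBORIS replicate 2 or shLUC replicate 1 brought KCNMA1 to −0.20, −0.24 and −0.17 (limma adjusted p = 0.0916, 0.0523 and 0.129). KCNN1 came to −0.19 without shBORIS replicate 1 (0.115) and −0.20 without shLUC replicate 1 (limma adjusted p = 0.0888). KCNT2 came to 0.16 without shBORIS replicate 2 and 0.15 without shLUC replicate 2 (0.222 each), and its mean over all probe sets gave 0.04 (limma adjusted p = 0.618).

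**Figure D3:**
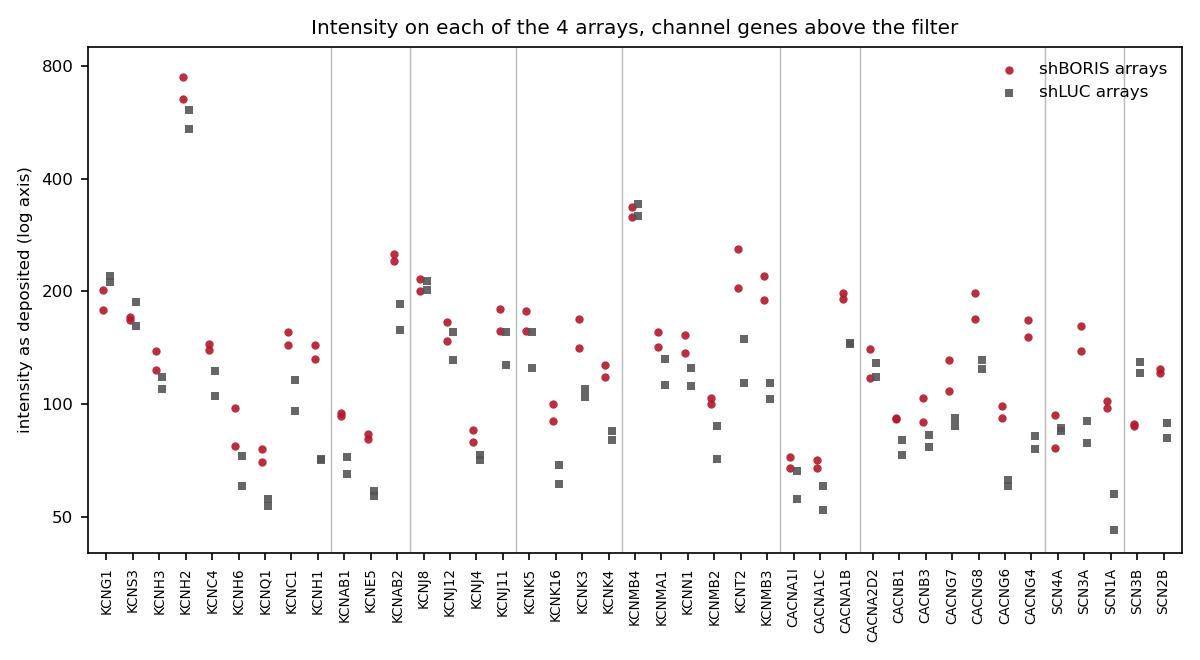
Intensity as deposited (log axis) on each shBORIS array (red circles) and each shLUC array (grey squares) for the 41 channel genes above the filter, 1 point per array; vertical lines separate the roles in the order of the text. The shBORIS points lie above the shLUC points for most genes, and below them without overlap for KCNG1 and SCN3B.

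Calcium channel pores define the current type: CACNA1B the N-type, CACNA1C an L-type and CACNA1I a T-type current. Of these 3, 2 were higher as deposited (77.2% of all genes tested were) and 2 fell on the centred scale (28.8%), with a median of −0.24. CACNA1B, the presynaptic channel that triggers transmitter release in sympathetic neurons, measured 198 and 191 against 145 and 145. Its shBORIS arrays were the higher pair by 0.39 as deposited (SE 0.11, limma adjusted p = 4.93e-04), with a centred difference of −0.09 that did not pass (SE 0.08, adjusted p = 0.324). Its second probe set above the filter gave 201 and 216 against 108 and 107, a centred difference of 0.38, and the mean of all its probe sets gave 0.19 (limma adjusted p = 0.0106), so the probe sets of CACNA1B did not share a direction. CACNA1I measured 67.4 and 72.1 against 66.1 and 55.6 and fell by 0.32 on the centred scale (SE 0.09, limma adjusted p = 0.0104). With the mean of its probe sets CACNA1I was at −0.11 on the centred scale (limma adjusted p = 0.181) and was called higher as deposited (0.33, limma adjusted p = 4.07e-04). CACNA1C, the gene just above the filter, measured 70.7 and 67.3 against 60.4 and 51.9. It passed the filter only through its shBORIS arrays, so its difference as deposited, 0.24, is given as a description. On the centred scale CACNA1C was lower by 0.24 (SE 0.09, limma adjusted p = 0.0484). Without shLUC replicate 1 CACNA1I was at −0.27 (limma adjusted p = 0.0775). CACNA1C was at −0.17 without shBORIS replicate 2 (0.243), −0.21 without shLUC replicate 1 (0.193) and −0.27 without shLUC replicate 2 (limma adjusted p = 0.0889).

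Accessory calcium channel subunits (CACNA2D, CACNB and CACNG genes) carry the pore to the membrane and tune it, and several CACNG proteins serve AMPA receptors instead. Of the 7 tested, 5 were higher as deposited (77.2% of all genes tested were). On the centred scale 1 rose (30.3% of all genes), 3 fell (28.8%) and 3 did not pass (median −0.12). CACNG4, a transmembrane AMPA receptor regulatory protein, measured 151 and 168 against 75.6 and 82.3. With no overlap between the groups, it rose by 0.88 as deposited (SE 0.11, limma adjusted p = 4.13e-15) and by 0.41 on the centred scale (SE 0.09, adjusted p = 0.0026), from 1 probe set above the filter. Of its relatives, CACNG8, another AMPA receptor regulatory protein, measured 169 and 198.5 against 131 and 124, CACNG7, of the same family, 108 and 131 against 87.2 and 91.8, and CACNG6, a family member that acts on calcium channels, 91.6 and 98.8 against 62.5 and 60.4. All 3 were higher as deposited (0.48, 0.36 and 0.52) and had centred differences of 0.00 in size, −0.12 and 0.04 that did not pass (limma adjusted p = 0.986, 0.276 and 0.678). With the mean of its probe sets CACNG7 was at −0.18 on the centred scale (limma adjusted p = 0.0327), and it was at 0.24 as deposited without shBORIS replicate 2 (limma adjusted p = 0.106).

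CACNA2D2, an alpha-2-delta subunit, measured 117 and 139.8 against 129 and 118, with overlapping groups as deposited (0.05, limma adjusted p = 0.696). It fell by 0.43 on the centred scale (SE 0.08, adjusted p = 8.73e-04). Its other probe set above the filter gave 111 and 110.3 against 89.8 and 82.4, with no overlap, a difference of 0.31 as deposited and −0.17 on the centred scale, and the mean of its probe sets was called higher as deposited (0.18, limma adjusted p = 0.0485). The intracellular beta subunits, which deliver pores to the membrane, also fell on the centred scale: CACNB1, at 90.9 and 91.7 against 80.2 and 72.9, by 0.26 (SE 0.08, limma adjusted p = 0.0179), and CACNB3, at 89.3 and 104 against 76.8 and 82.4, by 0.24 (SE 0.09, adjusted p = 0.0413). As deposited CACNB3 was higher by 0.23 (limma adjusted p = 0.0453) and CACNB1 was not called (0.21, adjusted p = 0.0676). CACNB1 was at −0.22 without shBORIS replicate 2, −0.26 without shLUC replicate 1 and −0.27 without shLUC replicate 2 (limma adjusted p = 0.0898, 0.0651 and 0.0576), and CACNB3 at −0.20 without shBORIS replicate 1 and −0.15 without shLUC replicate 2 (0.150 and 0.274).

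Sodium channel genes differed in both directions. Of the 3 pore subunits tested, 2 rose and 1 fell on the centred scale (median 0.25). SCN1A, which passed the filter only through its shBORIS arrays, is included in these figures. Of the 2 accessory subunits 1 fell (median −0.47). Among all genes tested 30.3% rose and 28.8% fell on that scale. SCN3B, a beta subunit that affects channel gating, measured 88.3 and 87.4 against 129 and 121. The shBORIS arrays were the lower pair without overlap, and it fell by 0.44 as deposited (SE 0.11, limma adjusted p = 1.07e-04) and by 0.92 on the centred scale (SE 0.08, adjusted p = 7.97e-06). Its other probe set above the filter gave 69.9 and 78.1 against 125 and 101, a centred difference of −0.99. SCN2B, another beta subunit, measured 121 and 124 against 88.9 and 81.3, which was 0.46 higher as deposited and −0.02 on the centred scale (limma adjusted p = 0.821); the mean of its probe sets was at −0.21 and passed (limma adjusted p = 0.0301).

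SCN3A, the sodium channel of the embryonic and early postnatal brain, measured 139 and 161 against 90.1 and 78.8, and SCN1A, the channel of inhibitory neurons whose promoter is shown above, 102 and 97.8 against 57.4 and 46.1. In both genes the shBORIS arrays were the higher pair. SCN3A rose by 0.72 as deposited (SE 0.11, limma adjusted p = 1.25e-10) and by 0.25 on the centred scale (SE 0.08, adjusted p = 0.0199). SCN1A, which passed the filter only through its shBORIS arrays, differed by 0.78 as deposited (SE 0.11) and by 0.30 on the centred scale (SE 0.09), given as a description. SCN4A, the channel of skeletal muscle, measured 93.4 and 76.0 against 84.9 and 86.5, with overlapping groups as deposited (−0.02, limma adjusted p = 0.879) and a fall of 0.50 on the centred scale (SE 0.11, adjusted p = 0.00369). Without shBORIS replicate 2 and without shLUC replicate 2, SCN3A was at 0.19 and 0.22 on the centred scale (limma adjusted p = 0.128 and 0.0781). Without shBORIS replicate 1 and without shLUC replicate 2, SCN1A was at 0.23 in both cases.

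Set beside each other, the ion families overlapped widely. Of all genes tested, 77.2% were higher and 4.64% lower as deposited, and 30.3% rose and 28.8% fell on the centred scale. In the 2 dimmest bins of level, which held 36 of the 41 channel genes, 9.13% and 23.8% of all genes rose and 36.0% and 31.9% fell. Potassium genes had a median difference of 0.30 as deposited, with 19 of 26 higher and none lower, and of −0.18 on the centred scale, with 3 rising and 13 falling. Calcium genes had 0.30 as deposited (7 of 10 higher, none lower) and −0.18 on the centred scale (1 rising, 5 falling). Sodium genes had 0.46 as deposited (3 of 5 higher, 1 lower) and −0.02 on the centred scale (2 rising, 2 falling), the last median turning to 0.094 under quantile normalization. These counts and medians include SCN1A (sodium), KCNQ1 and KCNE5 (potassium) and CACNA1C (calcium), which passed the filter only through their shBORIS arrays. Apart from SCN1A, the sodium genes SCN3B, SCN4A, SCN2B and SCN3A were at −0.92, −0.50, −0.02 and 0.25 on the centred scale. As deposited they were at −0.44, −0.02, 0.46 and 0.72. The median intensities of the potassium genes were 141 and 156 on the shBORIS arrays against 120 and 108 on the shLUC arrays, those of the calcium genes 99.9 and 117 against 78.5 and 82.4, and those of the sodium genes 102 and 97.8 against 88.9 and 81.3; for all genes tested they were 291 and 311 against 220 and 203. Genes of a family are not replicates, and no test of a difference between families was made. Within each family the centred differences spanned both signs, from −0.65 to 0.35 for potassium, −0.43 to 0.41 for calcium and −0.92 to 0.30 for sodium genes.

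**Figure D4:**
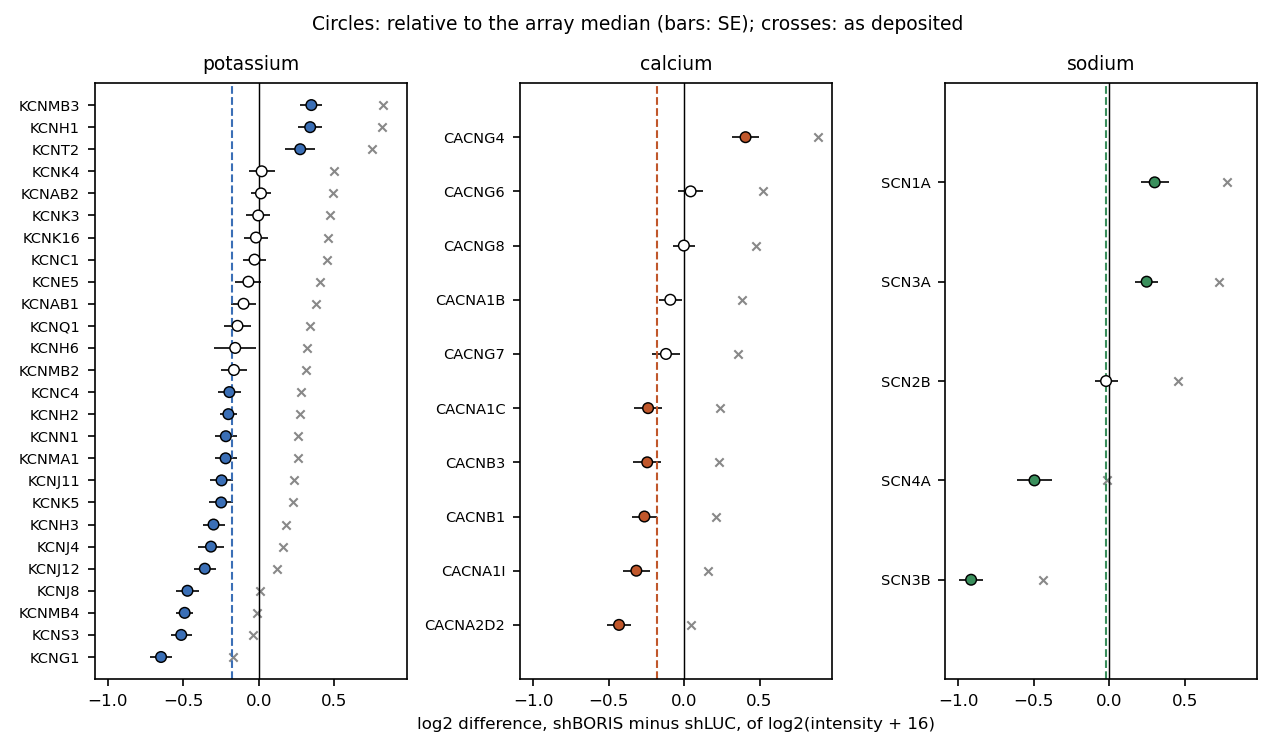
Log2 difference, shBORIS minus shLUC, of each channel gene above the filter by ion family: circles with SE bars are centred on the array median (filled where the limma adjusted p was under 0.05) and crosses are as deposited; dashed lines are family medians of the centred differences (−0.18, −0.18 and −0.02, the last turning to 0.094 under quantile normalization). Both signs occur in every family, and SCN3B is the single gene called lower on both scales. The medians include SCN1A, KCNQ1, KCNE5 and CACNA1C, which passed the filter only through their shBORIS arrays.

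The 8 genes with opposite calls on the 2 scales were CACNB3, CACNA1C, KCNMA1, KCNN1, KCNJ11, KCNK5, KCNH2 and KCNC4. Their shBORIS intensities were higher, by less than those of the median gene. CACNA1C passed the filter only through its shBORIS arrays, so its value as deposited is a description. As deposited, the calls of these genes were near the threshold. They were lost without shBORIS replicate 2 (differences of 0.14 to 0.27) and without shLUC replicate 2 (0.08 to 0.27). Not every difference shrank. CACNA1C was at 0.27 without shBORIS replicate 2 (0.24 with all arrays) and CACNB3 at 0.27 without shLUC replicate 2 (0.23). Such fits also have fewer arrays to call with. Fits without shBORIS replicate 1 or without shLUC replicate 1 have as few. In these the calls were kept, except for CACNA1C without shBORIS replicate 1 (0.21) and CACNB3 without shLUC replicate 1 (0.19). The differences of the kept calls were 0.31 to 0.37 without shBORIS replicate 1 and 0.32 to 0.38 without shLUC replicate 1. Why the calls depended on which array was left out was not tested.

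Several genes outside the rule work with these channels, and a list of 56 was examined, made of related channels, anchors, auxiliary subunits and regulators; 51 were on the array and 29 above the filter. As deposited 18 were higher (62.1%, against 77.2% of all genes tested) and 2 lower (6.90% against 4.64%). On the centred scale 6 rose (20.7% against 30.3%), 11 fell (37.9% against 28.8%) and 12 did not pass, with a median of −0.13. AKAP5 and AKAP9, which rose, and KCNIP3 and UNC79 had both shLUC arrays under the filter. They passed it only through the shBORIS arrays, where they are higher, so their values are a description. The counts above include them, among the 18 higher as deposited and, for AKAP5 and AKAP9, among the 6 that rose. ANK3, the ankyrin that anchors sodium and KCNQ channels at the axon initial segment, measured 334 and 381 against 166 and 134, with no overlap, and rose by 0.70 on the centred scale (SE 0.08, limma adjusted p = 3.8e-05). NEDD4L, a ubiquitin ligase that removes sodium and potassium channels from the membrane, measured 196 and 199 against 247 and 237. It fell by 0.75 on the centred scale (SE 0.07, limma adjusted p = 9.07e-06) and was at −0.27 as deposited (limma adjusted p = 0.0149). NALF2, a subunit of the sodium leak channel complex, measured 144 and 150.3 against 188 and 189. It fell by 0.80 on the centred scale (SE 0.07, limma adjusted p = 1.08e-05) and was at −0.32 as deposited (limma adjusted p = 0.00352). NEDD4L and NALF2 were the 2 partners called lower as deposited. RRAD, a small GTPase that restrains calcium channels, measured 59.1 and 65.2 against 66.9 and 60.3, overlapping as deposited, and fell by 0.50 on the centred scale (SE 0.09, limma adjusted p = 6.38e-04). REST, whose letters were searched above, measured 97.8 and 105 against 64.7 and 60.4, with a centred difference of 0.10 that did not pass (limma adjusted p = 0.295).

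The 81 channel genes under the filter were also examined without it. Among them, a fit of all 18244 genes without it called 15 higher (53.6% of all genes) and 6 lower (3.73%) as deposited; on the centred scale, 35 fell (27.7% of all genes) and 0 rose (25.9%), with 0 also at an unadjusted p under 0.05 in limma. Of all 7298 genes under the filter in that fit, 20.6% were higher and 2.75% lower as deposited, and 40.1% fell and 0.973% rose on the centred scale; the median difference as deposited was 0.11 for these channel genes and 0.11 for all genes under the filter. The 6 lower as deposited also fell on the centred scale; they are named after their values were seen, and their intensities are close to background. KCNV1, a silent subunit that modifies KCNB channels, measured 22.7 and 19.99 on the shBORIS arrays against 49.7 and 48.8 on the shLUC arrays, with no overlap, a difference of −0.81 as deposited (limma adjusted p = 3.1e-11) and −1.17 on the centred scale. KCNH8, an ether-à-go-go-like channel, measured 16.1 and 21.5 against 34.2 and 27.2 and differed by −0.43 (limma adjusted p = 8.11e-04). KCNF1, another silent subunit, measured 22.3 and 27.5 against 39.2 and 32.7 and differed by −0.35 (limma adjusted p = 0.00665). KCNK13, a two-pore channel, measured 19.7 and 15.99 against 31.1 and 22.2 and differed by −0.33 (limma adjusted p = 0.0123). KCNN4, an intermediate-conductance calcium-activated channel, measured 52.6 and 45.6 against 63.1 and 63.0 and differed by −0.28 (limma adjusted p = 0.0229). KCNE2, a small accessory subunit, measured 29.6 and 36.5 against 44.4 and 41.2 and differed by −0.27 (limma adjusted p = 0.0381). The centred differences of these last 5 genes were −0.79, −0.71, −0.69, −0.65 and −0.63.

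Across the alternative settings, CACNG4 and KCNMB3 of the 6 centred rises, and SCN3B, KCNG1, KCNS3, SCN4A, KCNMB4, KCNJ8, CACNA2D2 and KCNJ12 of the 20 centred falls, kept their calls in every setting in which they were tested. As deposited, 17 of the 29 genes called higher and the 1 called lower did so. The 17 include SCN1A and KCNE5, which passed the filter only through their shBORIS arrays, so their values there are a description. With quantile normalization the centred falls of CACNA1C, CACNA1I, CACNB1, CACNB3, KCNC4, KCNJ11, KCNJ4, KCNK5, KCNMA1 and KCNN1 no longer passed, at −0.04 (CACNA1C) to −0.20 (KCNJ11 and KCNK5). With no filter, when the median is taken over all 18244 genes, these 10 and also KCNH2 (−0.09) and KCNH3 (−0.19) no longer passed. With a pseudocount of 64 the centred difference of SCN1A was 0.10, given as a description, and the centred rise of SCN3A (0.12, limma adjusted p = 0.0858) no longer passed. Of the 16 genes with several probe sets above the filter, 12 had the same centred sign in all of them.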

How the data were processed

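Total RNA from 4 samples of TAE684-resistant Kelly cells (2 shBORIS, 2 shLUC), with ERCC RNA added, was hybridised to Affymetrix PrimeView arrays, per the labels' protocols. The authors deposited 1 linear intensity per probe set and array; the submitters' processing notes list MAS5, affy and R 3.1.3, with no role for each. How the arrays were scaled is not given here. Values may therefore carry a difference in scale between the groups, which is why both scales are given. Of 49495 probe sets, 202 controls, 1333 with several symbols and 2682 unnamed were left out; symbols were updated through Entrez identifiers for 45208 and kept for 70.

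The fit used log2(intensity + 16) of each gene's brightest probe set, which understates the change of dim genes. Genes under the 40th percentile of gene means were left out, 7298 of 18244. limma 3.58.1 (R 4.3.3) fitted the hairpin effect, with no covariate, to all 10946 genes tested, with an intensity trend and 2-sided p-values adjusted by the Benjamini-Hochberg method at 0.05. It was fitted once as deposited and once after centring each array on its median gene, and was tested on simulated data. Residual degrees of freedom were 2 and the prior's 7.94 on the centred scale; as deposited the prior was infinite, so small p-values there rest on the fitted trend. An exact test of 2 arrays against 2 cannot go below 0.333. Replicates correlated at 0.9967 (shBORIS) and 0.9963 (shLUC) across genes, which are not independent. With 2 arrays a group, their number limits the precision.

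Named were the 10 largest rises and falls on the centred scale with groups that do not overlap, the 2 brightest members of each role, members called in opposite directions, channels listed by name, the members next to the filter and 4 partners; other members were named to complete a role or for a promoter match. The members and lists were chosen with earlier results of these data known. Alternatives covered the filter, pseudocount, probe set choice, scaling, trend, replicate block and each array left out. No enrichment test was run.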

Additional observations from a re-analysis of the deposited data

How the results depend on the processing

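With 2 arrays a group, single differences of about 0.2 were near what could be called. Counts below are of channel genes unless partners are named. The main counts and medians include the channel and partner genes that passed the filter only through their shBORIS arrays. Higher as deposited (29): 4 at the 60th percentile in place of the 40th and 19 to 27 with 1 array left out. Lower as deposited (1): 7 without a filter, 0 at the 60th percentile, 3 with the mean of probe sets, 2 with ERCC centring and 1 with any array left out. Rising on the centred scale (6): 0 at the 60th percentile, 3 with the mean of probe sets, 3 to 6 with 1 array left out. Falling (20): 43 without a filter, 5 at the 60th percentile, 10 with quantile normalization, 11 to 16 with 1 array left out. Counts at the 60th percentile are over the 8 genes left. Partners rising (6) and falling (11) numbered 10 and 21 without a filter, 2 and 6 at the 60th percentile, and 5 to 5 and 10 to 12 with 1 array left out. The potassium median (−0.18) was −0.22 without a filter, −0.54 at the 60th percentile, −0.22 with the mean of probe sets, −0.067 with quantile normalization and −0.23 to −0.16 with 1 array left out. The calcium median (−0.18) was −0.040 with quantile normalization and −0.21 to −0.10 with 1 array left out. The sodium median (−0.02) was −0.23 without a filter, −0.44 with the mean of probe sets, 0.094 with quantile normalization and −0.05 to 0.01 with 1 array left out; no sodium gene was left at the 60th percentile. Genes above background (41) were 8 at the 60th percentile, 1 above the 95th percentile of background probe sets, 95 above their geometric mean, a setting chosen after seeing the data, and 40 to 43 with 1 array left out. The mean of probe sets turned CACNA1B to 0.19 and KCNK4 to −0.20 on the centred scale, and made calls of KCNC1 (−0.22), SCN2B (−0.21) and CACNG7 (−0.18). Of the 29 genes higher as deposited, 25 kept the call with ERCC centring. Of the centred calls, 6 of 6 rises and 10 of 20 falls kept theirs with quantile normalization. SCN1A, KCNQ1 and KCNE5 are among the 25, and SCN1A is among the 6, although they passed the filter only through their shBORIS arrays. Unless stated here, the cause of a change was not tested.

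With the replicate number as a block, 21 genes were higher and 1 lower as deposited, and 6 rose and 20 fell on the centred scale; partners were 6 and 11. The 8 genes called in opposite directions did not pass as deposited in that fit. Deviations of same-numbered arrays correlated at 0.0979, so the arrays share only a number.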
